A study of Mus musculus with 12 samples.

Results

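The poly(A)-binding proteins, their interacting proteins and proteins that bind TOP mRNAs were described here, 9 genes chosen by name out of 55073 genes with a symbol in the deposited tables. They were Pabpc1, Pabpc4 and Pabpn1, the interacting proteins Paip1, Paip2 and Paip2b, and the TOP-binding proteins Tia1, Tial1 and Cnbp. All 9 were detected in every library. The values came from rRNA-depleted RNA-seq of 6 numbered mice (678, 687, 688, 698, 700 and 703). Each mouse has 1 set of values, called a library here, with 34689262 to 44463362 expected counts per library.

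The labels describe 12 cortex samples of a study of Larp1, a protein that binds the cap and first bases of TOP mRNAs. There 6 are called Larp1 WT and come from mice that carry Nestin-Cre alone, and 6 are called Larp1 KO and come from Nestin-Cre;Larp1-flox/flox mice, with 3 mice per genotype. Both genotypes therefore carry the Cre transgene, whose promoter is active in progenitors of neurons and of some glia, so in the Larp1 KO tissue cells of other origin keep the floxed allele intact. The mice were male and of the C57BL/6J strain, and their age at sequencing was not stated. No label links a mouse number with a genotype, so each library is given by its number and no comparison of genotypes was made. Larp1, the targeted gene, was at 19.96 TPM in mouse 678, 18.77 in 687, 6.28 in 688, 6.44 in 698, 17.48 in 700 and 7.32 in 703 (TPM, a transcript share corrected for length), and these values were not used to assign a genotype. The cortical excitatory neuron markers Slc17a7 (346.5 to 491.9 TPM) and Camk2a (432.7 to 697 TPM) were high in every library, while the striatal markers Drd1, Drd2 and Adora2a were low (0.29 to 6.34 TPM). Cell and region markers nonetheless differed between libraries. Drd1, Drd2 and Adora2a and the oligodendrocyte genes Mbp, Mog and Mag were among the most variable genes (defined below). So were the inhibitory neuron gene Pvalb (12.69 TPM in mouse 688 to 33.56 in 678) and the blood gene Hbb-bs (0.95 in mouse 688 to 11.57 in 678). The summed TPM of the striatal and hippocampal list was 5.8 in mouse 700 to 15.2 in mouse 687. That of the 4 oligodendrocyte markers was 374.6 in mouse 687 to 597.6 in mouse 678. The part of these markers in the values that follow was not tested. Between any pair of libraries the counts differed by more than sampling noise, with a chi-square per degree of freedom of 14.1 to 63.2.

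Poly(A)-binding proteins coat the tail at the 3′ end of an mRNA. PABPN1 does so in the nucleus and sets tail length, and PABPC1 and PABPC4 do so in the cytoplasm, where they contact the initiation factor eIF4G at the cap. PAIP1 assists this contact and promotes translation, whereas PAIP2 and PAIP2B displace PABP from the tail and repress it. TOP mRNAs begin with a C followed by a run of pyrimidines and encode ribosomal proteins, translation factors and PABPC1 itself. TIA1 and TIAL1 (also TIAR), RNA-binding proteins of stress granules, and the zinc-finger protein CNBP have been reported to bind this 5′ sequence. Mammalian PABPC1 also binds an A-rich stretch in the 5′ leader of its own mRNA and represses its translation.

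The first bases of the members' transcripts are shown because the TOP motif is read from them. The motif searched was a C at the first base with at least 4 further bases that are all C or T, on the transcript's own strand. At the annotated start (GENCODE M21, GRCm38) of the protein-coding isoform with the highest median TPM it was found in 1 of the 9 genes, Pabpc1, against 2.38% of 13596 detected protein-coding genes (324 genes). Pabpc1 kept it when at least 6 pyrimidines were asked for, which 1.17% of genes had. The start of Pabpc1-201 (chr15:36608944-36608973, minus strand) was followed by 11 pyrimidines. In each line the first 30 transcribed bases are given 5′ to 3′, except that the RefSeq line opens 10 bases before the start, and capitals mark a C and the pyrimidines that follow it.
Pabpc1-201: CCCCTTCTCCCCggcggttagtgctgagag
Paip1-202: ttttctccggagggaccagcgaggaggtcg
Paip1 RefSeq start: cagtctcgcaCTTTTCTCCggagggaccag
Tial1-201: tCCTCCTCCTCCTCCTgctcctcctggttg
Cnbp-203: gattggatccgtgggcgaggcggaggagag
The last one, the leading Cnbp isoform (chr6:87851051-87851080, minus strand), is shown as a start with no such run.

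The reading of Paip1 depended on the annotation, and that of Tial1 on the isoform and on how far from the start the motif could begin. Paip1-202 starts in GENCODE at position 119428601 of chromosome 13 (plus strand) with a T and has no motif. RefSeq (GRCm38.p6) places a Paip1 start 1 base upstream, at 119428600, on a C followed by 8 pyrimidines. Another RefSeq start of Paip1, at 119428902, begins with a T and has no motif, so Paip1 counted there through 1 of its starts. In all, 7 of the 9 genes had a RefSeq start to read (Pabpc1 and Paip2 were not read there), and among these Paip1 alone carried the motif, against 2.94% of 10637 genes. With the motif allowed to begin up to 5 bases after a RefSeq start Paip1 was again the 1 gene found, against 14.5% of genes. Tial1-201 (chr7:128461326-128461355, minus strand) starts with a T and then runs through a C and 14 pyrimidines, so the leading isoform of Tial1 counted only when the motif could begin up to 5 bases from the start. Under that wider rule 3 of 9 genes had it in GENCODE (Pabpc1, Paip2 and Tial1), against 10.9% of all genes, and with any protein-coding isoform read at its first base 2 of 9 did (Pabpc1 and Tial1, the latter through an isoform at a median of 0 TPM), against 5.99%. The reading misses many TOP mRNAs: the ribosomal proteins are the classical TOP genes, and 11 of 80 (13.8%) had the motif at the annotated start of the leading isoform and 23 (28.8%) within 5 bases of it. A gene without a match therefore says only that these letters are not at the annotated base. For the leading Paip1 isoform, Paip1-208, no 5′ leader is annotated, so that base need not be a transcription start.

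The 5′ leaders of the cytoplasmic PABPs held the A-rich stretch as well. Over the leading isoforms of 12535 genes with an annotated leader of at least 30 bases, the densest window of 30 bases in Pabpc1 had 22 A, a number reached by 0.646% of genes, and that of Pabpc4 had 23 A, reached by 0.495%. In Pabpc1-201 the window spans bases 105 to 134 of a leader of 467 bases (chr15:36608840-36608869), and in Pabpc4-202 bases 12 to 41 of 704 (chr4:123282922-123282951, plus strand). Capitals mark A.
Pabpc1-201 leader: gAAAAAAcccAAAAAAAAtttAcAAAAAAA
Pabpc4-202 leader: gAAAAAAAAAAgcAAAAgggAAAAAAAgAA
The leaders of the other genes read were poorer in A, with 13 A in Tia1, 12 in Cnbp, 9 in Paip2b and 6 in Tial1. Those of the leading Pabpn1 and Paip1 isoforms were shorter than a window or not annotated. The match is a description of sequence, and no binding was measured.

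Levels are given as TPM summed over a gene's isoforms, which corrects for length and so allows genes to be compared. In whole tissue, fewer cells of a type and less RNA per cell cannot be told apart. Among the cytoplasmic PABPs, Pabpc1 (ENSMUSG00000022283.15, chr15:36595661-36609668, minus strand) was at 56.0 TPM in mouse 678, 57.7 in 687, 46.6 in 688, 46.2 in 698, 41.8 in 700 and 61.8 in 703. Its paralog Pabpc4 (chr4:123262351-123298925, plus strand) was at 7.2, 7.87, 7.05, 7.77, 6.39 and 9.15 TPM in the same order of mice. Both were lowest in mouse 700 and highest in mouse 703, and their ranges did not overlap. The ratio of Pabpc1 to Pabpc4 was 7.78 in mouse 678, 7.33 in 687, 6.61 in 688, 5.95 in 698, 6.54 in 700 and 6.76 in 703, so Pabpc1 was several times the level of Pabpc4 in every library. Pabpn1 (chr14:54892500-54898169, plus strand), the nuclear protein, was at 32.4, 30.8, 31.6, 34.1, 27.3 and 36.7 TPM, between the pair of cytoplasmic genes in every library.

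The interacting proteins were together more abundant than the cytoplasmic PABPs on the TPM scale, but not in expected counts, which are not divided by length (ratio 0.821 to 1.02, median 0.863). Paip1 (chr13:119428601-119458218, plus strand), the activator, was at 31.96, 28.9, 31.3, 30.6, 27.0 and 35.5 TPM in mice 678, 687, 688, 698, 700 and 703. The repressor Paip2 (chr18:35598617-35617187, plus strand) was at 34.8, 37.5, 36.5, 35.9, 31.4 and 40.1 TPM, and its paralog Paip2b (chr6:83805401-83831741, minus strand) at 15.5, 12.5, 13.0, 14.1, 13.1 and 13.7 TPM. Paip2 thus exceeded Paip2b in every library, by 2.25-fold in mouse 678 up to 2.99-fold in mouse 687. The summed TPM of Paip1, Paip2 and Paip2b was 1.20 times that of Pabpc1 and Pabpc4 in mouse 687 and 1.51 times in mouse 688, with the other libraries between these. The activator and the repressors did not stand at equal levels, since Paip1 was 0.577 to 0.66 times the sum of Paip2 and Paip2b.

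The 3 TOP-binding proteins covered almost the whole span of levels of the 9 genes. Cnbp (chr6:87842615-87851106, minus strand) was the most abundant at 71.9, 61.7, 61.6, 64.5, 55.1 and 66.6 TPM in mice 678, 687, 688, 698, 700 and 703, and 5.41% of detected protein-coding genes had a higher median. Tial1 (chr7:128439777-128461717, minus strand) was at 14.3, 14.7, 14.6, 14.5, 11.5 and 17.9 TPM. Tia1 (chr6:86404219-86433405, plus strand) was at 7.14, 6.03, 6.35, 8.53, 9.06 and 8.49 TPM. Tial1 was higher than Tia1 in all 6 libraries, and mouse 700 had both the lowest Tial1 and the highest Tia1, so that the ratio of Tial1 to Tia1 ran from 1.27 in mouse 700 over 1.70 in 698, 1.996 in 678, 2.10 in 703 and 2.30 in 688 to 2.44 in 687.

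**Figure D1:**
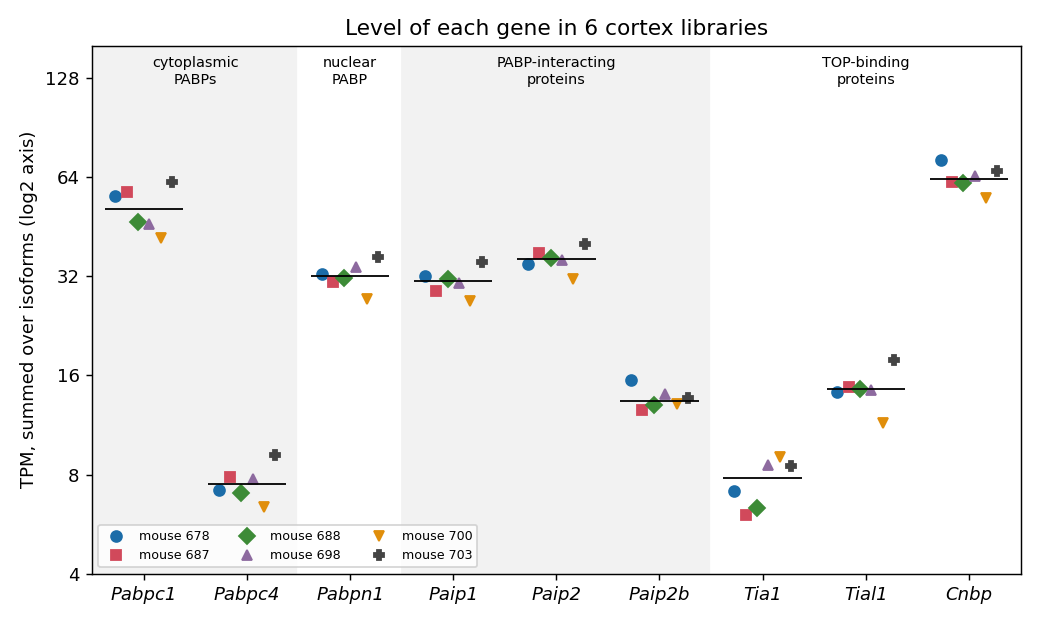
Level of each of the 9 genes (TPM summed over isoforms, log2 axis) in the libraries of the 6 numbered mice, 1 symbol per mouse, with a line at the median and genes placed by role. Cnbp and Pabpc1 sit highest and Pabpc4 and Tia1 lowest, and mouse 700 is the lowest library for 7 of the 9 genes.

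By median TPM the order was Cnbp, Pabpc1, Paip2, Pabpn1, Paip1, Tial1, Paip2b, Tia1 and Pabpc4. Ranges over libraries did not overlap between Pabpc1 and Paip2, between Paip1 and Tial1, and between Paip2b and Tia1, and they overlapped for the other 5 neighbours. Of the neighbouring pairs, 6 of 8 kept their order in all 6 libraries. Tial1 was above Paip2b in 4 of 6 and Tia1 above Pabpc4 in 2 of 6, so neither of these pairs had a stable order. The protein-coding share of all TPM moved with the levels: nuclear protein-coding genes held 22.7% of TPM in mouse 700, the lowest library for 7 of the 9 genes, and 28.8% in mouse 703, the highest for 6 of them. TPM is a share of a whole that includes the other RNA classes, and for comparisons between libraries counts scaled by the TMM method (trimmed mean of M values) were therefore used.

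On that scale the 9 genes varied little between the libraries. Spread was taken as the highest over the lowest library on CPM + 1 (CPM, counts scaled to a common library size) and set beside the running median of the detected genes nearest in level. None of the 9 was among the most variable genes, those in the top 5% by excess over the running median (751 of 15002 detected genes, 5.01%), and with so small a background share a count of 0 among 9 genes is close to it. The median highest-to-lowest ratio was 1.17 over the 9 genes and 1.25 over all detected genes. Of the 9, 3 lay above the running median for their level (Pabpc1, Paip2b and Tia1), where 49.9% of detected genes do.

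**Figure D2:**
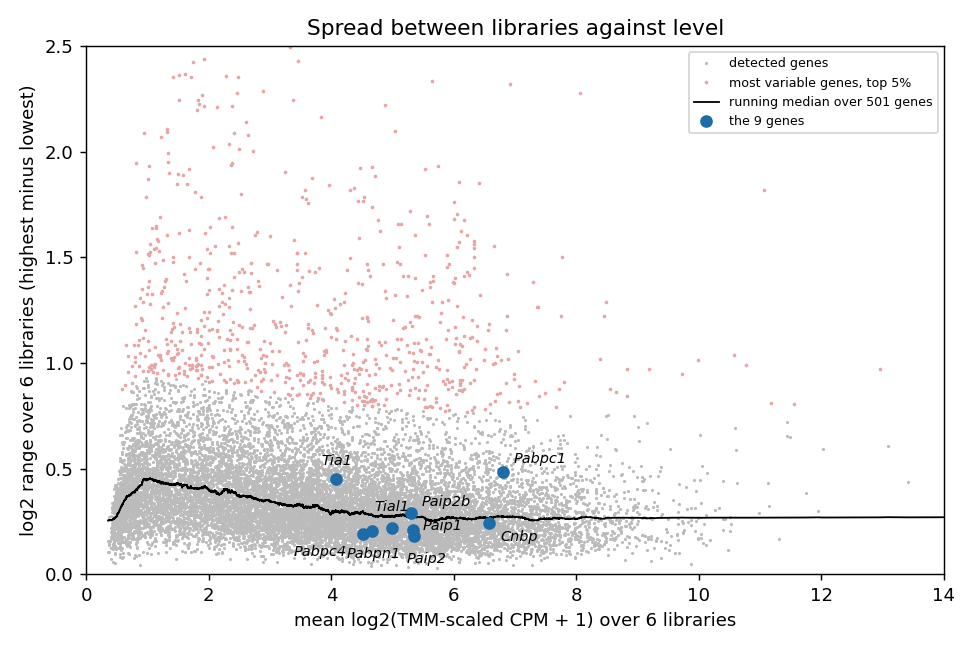
Log2 range over the 6 libraries against mean log2(TMM-scaled CPM + 1) for the detected genes, with the running median, the most variable genes in the top 5% and the 9 genes named. All 9 lie below the most variable genes, with Pabpc1, Tia1 and, narrowly, Paip2b above the running median and the other points below it. In all, 21 genes fall outside the axes.

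Pabpc1 had the widest spread of the 9 on the TMM scale. Its TMM-scaled CPM was 120.3 in mouse 678, 129.2 in 687, 105.5 in 688, 92.2 in 698, 111.4 in 700 and 109.3 in 703, a highest-to-lowest ratio of 1.40 where 1.21 was typical for its level, and 15.6% of detected genes had a larger excess. Its counts of 3258 to 5671 carry a counting error of at most 1.75% per library. The ranking depended on the setting: without mouse 698 the ratio was 1.22 for Pabpc1 and 1.36 for Tia1, with protein-coding isoforms alone 1.42 and 1.46, with TPM rescaled over nuclear protein-coding genes 1.29 and 1.60, and on TPM as deposited Tial1 was widest at 1.51, against 1.47 for Pabpc1. Mouse 687 was highest and mouse 698 lowest, with the other libraries between them.

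Tia1 followed, with TMM-scaled CPM of 15.5, 14.7, 16.7, 15.0, 19.4 and 13.95 in mice 678, 687, 688, 698, 700 and 703. The ratio was 1.37 against a typical 1.23, and the value of mouse 700 set it apart: without that library the ratio was 1.18. Counts were 530 to 761, so the counting error reached 4.34% in 1 library. Paip2b, at 34.6 in mouse 703 to 42.6 CPM in mouse 678, had a ratio of 1.22 against 1.21.

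The remaining 6 genes varied less than was typical for their level. The ratio was 1.14 for Paip2 (37.5 to 42.7 CPM, typical 1.21) and 1.14 for Pabpc4 (20.4 to 23.4 CPM, typical 1.23). Pabpn1 had a ratio of 1.15 (22.4 to 25.9 CPM), Paip1 of 1.16 (36.8 to 42.6 CPM) and Tial1 of 1.17 (28.9 to 33.8 CPM), and Cnbp one of 1.18 (87.1 to 103.2 CPM). On this scale 5 of the 9 genes, among them Pabpc1, were highest in mouse 687, 3 in mouse 678 (Pabpn1, Paip2b and Cnbp) and Tia1 in mouse 700. The lowest library was mouse 703 for 4 genes, namely Pabpn1, Paip2b, Tia1 and Cnbp.

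**Figure D3:**
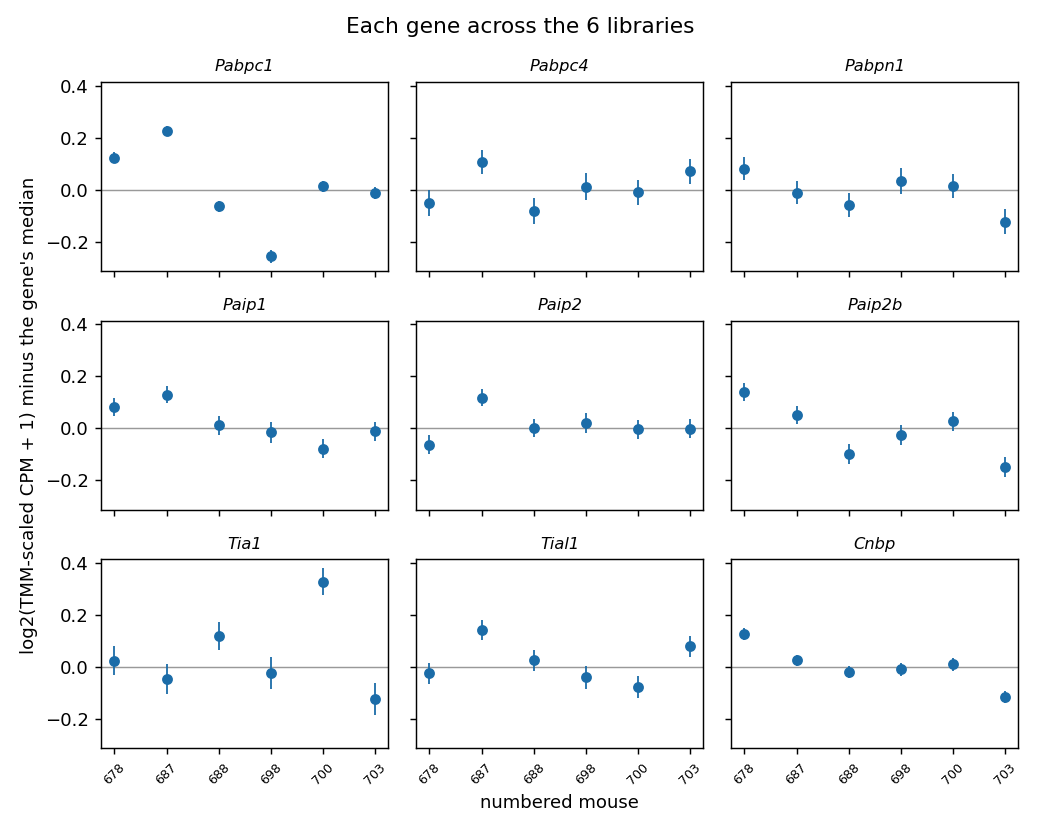
Log2(TMM-scaled CPM + 1) of each gene in each numbered mouse, minus the gene's median over the 6 libraries, with bars for the counting error of the library (1 over the square root of the count). Pabpc1 reaches from below the median in mouse 698 to above it in 687, Tia1 stands out in mouse 700, and the other genes stay near the line.

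Genes with the most similar profile were sought among 7482 other detected protein-coding genes with a median count of at least 500, by the root-mean-square difference of centred log2(CPM + 1) over the 6 libraries. The closest to Pabpc1 were Slco1c1, Sp2 and Spred3 (0.025 to 0.0334), and those to Pabpc4 were Mboat7, Rit2 and Snx12 (0.0176 to 0.0225). For Pabpn1 they were Abhd8, Mkrn1 and Rcc2 (0.0105 to 0.0146). Mkrn1 encodes a ubiquitin ligase known to bind PABP and is 1 of the 16 genes in the list of PABP-binding proteins. Whether that list was over-represented among the nearest genes was not tested. The closest to Paip1 were Hnrnpll, Chst10 and Nudt21 (0.00882 to 0.0229), to Paip2 Spcs1, Trip4 and AI413582 (0.0175 to 0.0198), and to Paip2b Megf10, Zfyve9 and Foxn3 (0.0176 to 0.0243). Tia1 had no gene as near, with Jcad, Alms1 and Mrpl20 at 0.0522 to 0.0534. Tial1 was nearest to Ptgfrn, Alkbh8 and Mpv17 (0.00938 to 0.0131) and Cnbp to Stag1, Mydgf and Golga7b (0.0123 to 0.0191). The 6 libraries, each with their own depth and composition, are few points for such a likeness. Genes that vary little lie close together by this measure, as Pabpn1 (ratio 1.15) and Mkrn1 (1.17) do. Nearness therefore need not mean that genes vary together.

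The isoform make-up differed between paralogs. For 12284 detected protein-coding genes with at least 2 listed isoforms, a median of 94.98% of TPM lay in isoforms annotated as protein-coding (quartiles 81% and 99.7%). Paip2 (95.6 to 98.2%), Paip1 (95.1 to 98.7%), Cnbp (92.7 to 98.2%) and Pabpc4 (89.4 to 96.0%) were near this median. Tia1 was far below it, with 39.4% in mouse 678, 51.7% in 687, 44.1% in 688, 30.7% in 698, 31.0% in 700 and 43.5% in 703, whereas Tial1 had 79.5 to 87.7%. The remainder of Tia1 was spread over retained introns (24.2 to 38.2%), processed transcripts without a reading frame (4.09 to 23.0%) and isoforms marked for nonsense-mediated decay (5.64 to 21.3%), and 28 isoforms were listed for the gene. Some retained-intron entries, such as Tia1-225 (2654 bases, chr6:86421981-86424634), are single unspliced blocks. How much unspliced RNA entered these shares in the rRNA-depleted libraries was not tested. Paip2b had 22.4 to 37.5% of its TPM in retained-intron isoforms, chiefly Paip2b-204, and Paip2 1.81 to 4.36%.

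These shares depended on whether length was taken into account. Paip2b-204 is 649 bases long against 3982 for the coding Paip2b-201, and retained introns held 30.7% of the gene's TPM but 5.48% of its expected counts. In Pabpc1 a processed transcript, Pabpc1-207 (747 bases, chr15:36598301-36602346), held 13.99 to 25.6% of TPM in the single libraries and 20.5% over all libraries, but 5.46% of the counts. It was highest in mouse 703 (15.8 TPM) and lowest in mouse 700 (5.85 TPM), while Pabpc1-201, which encodes the protein, was at 42.1, 43.9, 37.7, 32.6, 34.4 and 43.3 TPM in mice 678, 687, 688, 698, 700 and 703. Part of the spread of Pabpc1 TPM thus lay in this short isoform. For Tia1 the protein-coding isoforms held 62.6% of the counts and 39.1% of the TPM.

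The transcripts whose starts are printed above were not the whole of their genes. Pabpc1-201 led Pabpc1 in all 6 libraries, with 69.98 to 82.2% of the gene's TPM. Pabpc4 was divided between Pabpc4-202, with the A-rich leader (2.41 to 4.37 TPM), and Pabpc4-204 (2.14 to 3.66 TPM), which starts upstream and holds the same A-rich window, and Pabpc4-202 was the higher in 3 of 6 libraries. Tial1-201, which opens with the pyrimidine run, held 38.5 to 53.0% of Tial1, and Tial1-202, which starts elsewhere without one, 23.1 to 26.9%. Paip1-202, the isoform that starts 1 base after the RefSeq C, held 15.7 to 25.3% of Paip1 (4.72 to 8.95 TPM). The leading Paip1 isoform was Paip1-208 in 4 libraries, a short one of 621 bases at 7.56 to 11.4 TPM, so no isoform of Paip1 dominated. Paip1-208 and Paip1-203 have no annotated 5′ leader, so these levels do not tell which start was used. Pabpn1 likewise was split between Pabpn1-201 (12.4 to 20.1 TPM) and Pabpn1-208 (9.55 to 17.5 TPM), the former the higher in 5 of 6 libraries. Cnbp-203 (35.6 to 44.4 TPM) led Cnbp and Paip2-201 (20.6 to 27.5 TPM) led Paip2 in every library.

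**Figure D4:**
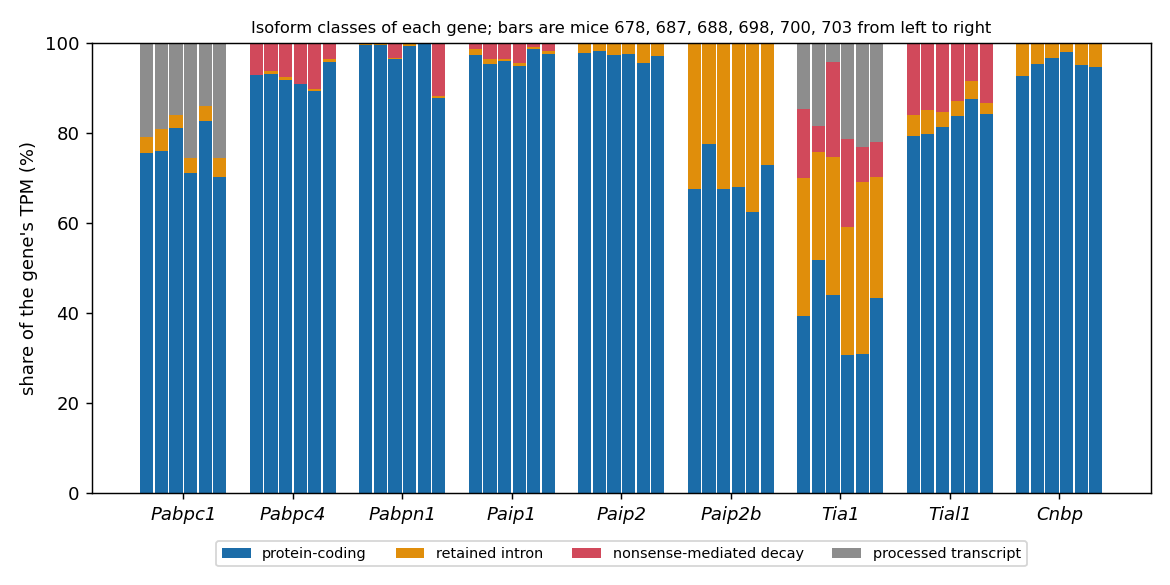
Share of each gene's TPM (%) in isoforms annotated as protein-coding, retained intron, nonsense-mediated decay or processed transcript, stacked to 100%, with 1 bar per numbered mouse. Tia1 has the lowest protein-coding share in every library, Tia1 and Paip2b hold the largest retained-intron shares, and Pabpc1 has a processed transcript of 13.99 to 25.6%.

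Counting protein-coding isoforms alone moved the ratios of Tial1 to Tia1 and of Paip2 to Paip2b beyond their range over the libraries, and the ratio of Pabpc1 to Pabpc4 within an overlapping range. Protein-coding Tia1 was at 2.62 to 3.69 TPM and Tial1 at 10.1 to 15.0 TPM, and the ratio of Tial1 to Tia1 rose from a median of 2.05 to 4.05 (3.58 in mouse 700 to 4.63 in mouse 698). Mouse 700 remained the lowest library for this ratio. The ratio of Paip2 to Paip2b was 3.25 to 4.03 in place of 2.25 to 2.99, and that of Pabpc1 to Pabpc4 was 4.66 to 6.31 in place of 5.95 to 7.78. In expected counts, which are not divided by length, Paip2 and Paip2b were nearly equal (0.882 to 1.13), since the Paip2b mRNA is the longer.

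**Figure D5:**
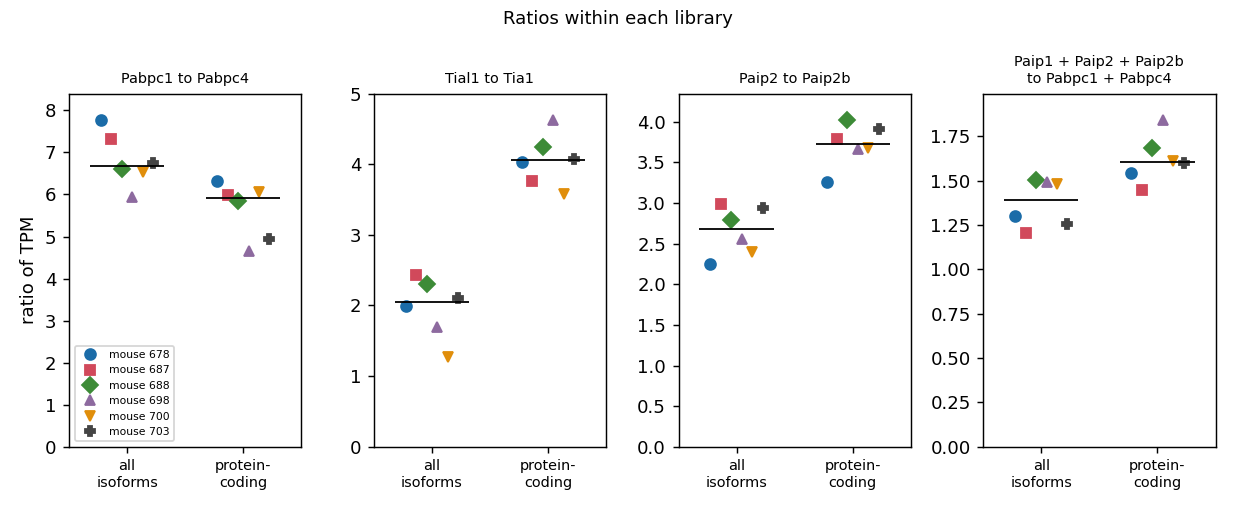
Ratios of TPM between paralogous or interacting genes in each library, over all isoforms on the left and protein-coding isoforms on the right of each panel, with a line at the median. The ratio of Tial1 to Tia1 moves from 1.27 to 2.44 with all isoforms to 3.58 to 4.63 with protein-coding ones, and the other 3 ratios move less.

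Reads of several members could be shared with other annotated genes, whose place in the genome was not compared with that of the member. Over stretches of 50 bases in the members' listed transcripts, Paip1, Tial1 and Cnbp shared none with another gene. Pabpc4 shared 54.5% of its stretches, almost all with processed pseudogenes, of which 8 shared at least 100 stretches. No single one of these copies held more than 18.9 expected counts in any library, against 772 to 1028 for Pabpc4. Pabpc1 shared 9.92%, with 509 other genes. Of these, 2 pseudogene copies shared at least 100 stretches and each held at most 15.7 counts. Tia1 shared 2.36% with 176 genes, Paip2 1.7% with 91 and Paip2b 1.31% with 97. Among these only Gm44790, annotated as protein-coding, shared at least 100 stretches, with Tia1, and it held at most 13.1 counts. Pabpn1 shared 18.8%, nearly all with Gm20521, a gene model annotated as protein-coding, at most 19.2 counts. These shares cover all listed isoforms, and in the isoforms that held most of the TPM they were higher, 20.7% in Pabpc1-201, 74.7% in Pabpc4-202, 61.5% in Pabpn1-201 and 92.2% in Pabpn1-208. How the counting divided reads between the members and these other genes was not tested. Pabpc1l2b-ps, a pseudogene of the family on chromosome X (chrX:103013698-103014387) singled out after its values were seen, was at 23.9 to 41.9 TPM, above Pabpc4 in every library, and shared 0 stretches with Pabpc1 or Pabpc4. It is 690 bases long. In expected counts, which are not divided by length, it was below Pabpc4 in every library (535.6 to 763.2 against 772 to 1028).

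Of the 57 other genes of the pathway that were detected, 2 were among the most variable, against 5.01% of all detected genes. A count so near that share says little about the pathway. None of the 16 proteins that bind PABP was among the most variable genes (background 5.01%), and their median highest-to-lowest ratio was 1.20. Eif4g1, the scaffold of the cap-binding complex, was the most abundant (49.8 to 73.6 TPM), and the initiation factor Eif4b, itself a TOP mRNA, varied most (27.4 TPM in mouse 688 to 47.3 in mouse 678). Of the 23 poly(A) polymerases and deadenylases 1 was among the most variable, the immediate-early gene Btg2, at 3.43 TPM in mouse 678, 6.98 in 687, 13.1 in 688, 3.59 in 698, 4.97 in 700 and 3.03 in 703. The poly(A) polymerase Papola led that list with 19.9 to 25.1 TPM.

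Of the 7 other poly(A)-binding proteins 2 passed the minimum of 10 counts in every library, the nuclear zinc-finger protein Zc3h14 (20.2 to 26.9 TPM) and Pabpc5 (0.69 to 0.98 TPM), and neither was among the most variable. None of the 10 stress granule proteins was either, with Caprin1 the most abundant and most variable of them at 46.5 to 79.7 TPM. Among the 6 other proteins reported to bind TOP mRNAs, the single one called was Larp1, with the values given above and a ratio of 3.2. The poly(C)-binding protein Pcbp2 was the most abundant of them (117.8 to 147.1 TPM). For lists this short, counts of 0 or 1 are close to the background of 5.01%.

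Pabpc1 spread less between libraries than most ribosomal proteins, the other TOP class read here. Of the 80 cytosolic ribosomal proteins 77 were among the most variable genes, with a median ratio of 2.45. The most abundant was Rpl41 (351.8 to 528.6 TPM, ratio 1.55) and the most variable Rps23 (50.4 to 176.1 TPM, ratio 3.81). The 313 genes with the motif that are not ribosomal proteins, Pabpc1 among them, had a median ratio of 1.26 (quartiles 1.18 and 1.38). The 1.40 of Pabpc1 lay above that upper quartile, and 22.0% of these genes exceeded it. Among the 13272 genes without the motif at the start the median was 1.24, close to that with it, and 19.8% exceeded Pabpc1. That class holds most ribosomal proteins, since 11 of 80 had the motif, so these classes do not separate TOP mRNAs from others. These are descriptions over genes, with no test of a difference.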

How the data were processed

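RNA from mouse cortex was sequenced by the authors as paired-end libraries after rRNA depletion. Trimming with cutadapt, alignment to mm10 with STAR and quantification with RSEM are named in the submitters' processing notes, without versions. The authors deposited expected counts and TPM per transcript for 6 numbered mice, with no pooling stated. That all are cortex follows from every labelled sample being cortex. Of the value columns, 12 were used and 18 were not. Of 142351 transcripts, 141441 (99.36%) were matched by Ensembl identifier to GENCODE M21 and summed per gene symbol.

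Expected counts were rounded and scaled by TMM (edgeR 4.0.16 in R 4.3.3); genes with at least 10 counts in every library (15002) were detected. The log2 range of log2(CPM + 1) was compared with a running median over genes of like level, in Python 3.11.15 with pandas 2.3.3, and the step was tested on simulated data. Counting error covers counting only. Libraries had no group, so no mean with SD and no test between groups was computed; chi-square values between libraries and Dixon's criterion describe single libraries. TOP motifs were read from GENCODE M21 transcripts and from RefSeq promoters (7 of the 9 genes matched). Named genes were all 9 members, the most abundant and the most variable gene of each other list, and the 3 genes of most similar profile per member. Members and lists were chosen with earlier results of these data known. Alternatives comprised DESeq2 1.42.0 size factors, other filters, units, pseudocounts, isoforms and motif rules, and leaving out each library.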

Additional observations from a re-analysis of the deposited data

Results flagged for a closer look

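Of 31 sets of 6 library values compared (TPM, TMM-scaled CPM and protein-coding share of each gene, and 4 ratios), 2 had a library far from the others by Dixon's criterion, which chance alone gives in about 5% of sets. The protein-coding share of Pabpn1 was 87.9% in mouse 703, where the next lowest library had 96.4%. The isoform behind it was Pabpn1-209, marked for nonsense-mediated decay, at 4.29 TPM in mouse 703, 1.03 in 688 and at most 0.01 in the others. The protein-coding share of Paip2 was 95.6% in mouse 700, where the next lowest had 97.2%, and its retained-intron isoforms held 4.36% there.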

How the results depend on the processing

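None of the 9 genes was among the most variable under any of the alternatives run, including leaving out each library. The count of pathway genes called was 2 with the reported settings and 2 to 3 under the alternatives, with Larp1b added on log2(TPM + 1) and Eif4b added with the SD or without mouse 703. With protein-coding isoforms alone the median ratios became 5.91 for Pabpc1 to Pabpc4, 4.05 for Tial1 to Tia1, 3.73 for Paip2 to Paip2b and 1.60 for the Paip genes to the cytoplasmic PABPs. In expected counts the ratios of Pabpc1 to Pabpc4, of Paip2 to Paip2b and of the Paip genes to the PABPs were 5.17, 1.06 and 0.863, and in counts of protein-coding isoforms, an alternative chosen after seeing the data, all 4 were 5.44, 2.94, 1.10 and 0.895. Counts are not divided by length, and there the median ratio of the Paip genes to the PABPs was below 1, though mouse 698 had 1.02 and 1.07. The number of members with a TOP motif was 1 as reported, 2 with any protein-coding isoform and 3 within 5 bases of the start. RefSeq starts, also chosen after seeing the data, gave 1, Paip1, with Pabpc1 and Paip2 not read. Without single libraries the median ratios ranged from 6.61 to 6.76, 1.996 to 2.10, 2.56 to 2.80 and 1.30 to 1.48. No paired analysis was possible because no label links the mouse numbers of the files with the replicate numbers of the samples. Depth limits Tia1 most, and 6 libraries without a genotype do not allow a test of Larp1 loss.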

Other observations

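The summed TPM of the 80 ribosomal proteins was 15051 in mouse 678, 13841 in 687, 6385 in 688, 6714 in 698, 13166 in 700 and 7575 in 703. Pabpc1 did not follow that order on the TPM scale, being highest in mouse 703 and lowest in mouse 700. On the TMM-scaled CPM scale the 3 libraries with the largest ribosomal protein sums also had the 3 highest Pabpc1 values, 120.3 in mouse 678, 129.2 in 687 and 111.4 in 700, and the other 3 had 105.5 in mouse 688, 92.2 in 698 and 109.3 in 703. For Pabpc1 the gap between mice 700 and 703 was small beside the whole range. The order was not particular to Pabpc1, since Paip2b and Cnbp were also higher in mice 678, 687 and 700 than in the other libraries. Paip2b was at 39.25 to 42.55 CPM in those mice and 34.62 to 37.83 in the others, and Cnbp at 95.05 to 103.2 and 87.05 to 93.89. With no genotype assigned this order was not tested. The summed TPM of the 9 genes was 222.6 in mouse 700 and 289.8 in mouse 703.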
